A study of Homo sapiens with 12 samples.

Results

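Heat shock proteins and chaperones fold newly made proteins, hold unfolded ones and return damaged ones to use. The transcripts of these genes were examined in 6 peak lists from RNA immunoprecipitation followed by sequencing (RIP-seq), in which an antibody pulls down a protein together with its RNA and peaks are called where that RNA is enriched over input. Members were chosen by symbol alone, as the HSP90, HSP70 (HSPA, HSPH), HSPB, HSPD and HSPE genes, the DNAJA, DNAJB and DNAJC genes, and the genes of the TRiC ring (TCP1 and CCT2 to CCT8). Of the 10830 gene names in the lists, 63 met this rule. The annotation held 84 protein coding genes that meet it, so 75% of them carried a peak in at least 1 list, beside 53.6% of all annotated protein coding symbols.

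The 12 samples, 6 RIP and 6 input, were all HepG2, a cell line established from a human liver cancer. All cells came from stable lines made by infection with a vector for 3XFlag-METTL16 (pmiRNA1), 3XFlag-eIF3a (pSIN4) or 3XFlag-eIF3b (pSIN4), so each protein was overexpressed, and the cells were cross-linked with ultraviolet light. Each protein had 2 RIP replicates, described as biological in the methods. METTL16 is an RNA methyltransferase, and eIF3a and eIF3b are subunits of translation initiation factor 3. By the labels, METTL16 and eIF3b were pulled down through the Flag tag and eIF3a with its own antibody, while the deposited lists are all named for Flag. For eIF3a, antibody and protein therefore cannot be told apart. A peak is an enrichment over input and not an expression level, and the depth behind it is unknown because the lists hold no read counts.

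The lists held 12921 to 21733 peaks. The list of eIF3a replicate 2 was the shortest, with peaks on 5226 genes against 8166 in eIF3a replicate 1, and the counts of bound genes are given with and without it. Of 12 liver marker genes, 10 carried a peak in at least 1 list, with APOH and TTR in none. METTL16 had peaks on 8 of the 10 in both replicates, eIF3a on 1 and eIF3b on 5, beside 42.6%, 42.4% and 60% of all genes with a peak in any list.

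As background, HSP90 proteins mature signalling proteins and kinases and carry a highly charged linker between their N-terminal and middle domains. HSP70 proteins bind exposed hydrophobic stretches, with a C-terminal lid over the binding site, and DNAJ (HSP40) proteins deliver clients to HSP70 and switch on its ATPase through a J domain. Small heat shock proteins hold unfolded clients without ATP. The mitochondrial chaperonin of HSPD1 and HSPE1 and the cytosolic TRiC ring enclose clients in a chamber, TRiC folding actin and tubulin among others.

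Stretches of coding sequence under peaks of most lists are shown for HSP90 and HSP70 genes and DNAJC8, because the results on position turn on them. Stretches in untranslated regions are not printed, such as that of HSPA12A in the 3′ UTR (4 lists) and that of HSPA1A around the start codon (all 6). Each is the part covered by peaks in at least 4 lists (HSP90AB1, HSP90B1), at least 5 lists (HSPA5, HSPA8) or all 6 lists (the others), trimmed to whole codons and written 5′ to 3′ on the transcript strand from GRCh38. Capitals mark in-frame codons for glutamate and lysine (GAA, GAG, AAA and AAG). The setting of 4 lists and, in HSP90B1, the choice among its stretches were made after the values were seen. At 5 lists, the longest stretch of HSP90AB1 covered nucleotides 2049 to 2227 from the start of the coding sequence, and a shorter one of 90 bases lay inside the stretch printed. In HSP90B1, the stretch under 5 lists covered nucleotides 2173 to 2293, and a longer one under 4 lists (240 bases) lay at the start codon.
HSP90AA1: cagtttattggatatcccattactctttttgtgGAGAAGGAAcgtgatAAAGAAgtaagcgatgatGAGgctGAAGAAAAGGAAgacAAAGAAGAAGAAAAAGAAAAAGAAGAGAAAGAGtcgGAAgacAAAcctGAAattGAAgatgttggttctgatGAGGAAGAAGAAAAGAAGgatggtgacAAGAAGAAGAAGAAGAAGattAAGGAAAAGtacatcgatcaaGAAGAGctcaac
HSP90AB1: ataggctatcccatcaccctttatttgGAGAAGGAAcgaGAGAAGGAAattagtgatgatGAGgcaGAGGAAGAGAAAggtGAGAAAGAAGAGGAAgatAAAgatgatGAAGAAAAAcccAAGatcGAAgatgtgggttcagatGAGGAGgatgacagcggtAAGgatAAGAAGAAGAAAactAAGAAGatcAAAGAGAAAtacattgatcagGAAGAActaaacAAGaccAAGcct
HSP90B1: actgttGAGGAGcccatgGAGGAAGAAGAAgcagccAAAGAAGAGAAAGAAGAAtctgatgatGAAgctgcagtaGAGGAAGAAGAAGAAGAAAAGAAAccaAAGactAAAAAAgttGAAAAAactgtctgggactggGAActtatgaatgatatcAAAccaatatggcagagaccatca
HSPA1A: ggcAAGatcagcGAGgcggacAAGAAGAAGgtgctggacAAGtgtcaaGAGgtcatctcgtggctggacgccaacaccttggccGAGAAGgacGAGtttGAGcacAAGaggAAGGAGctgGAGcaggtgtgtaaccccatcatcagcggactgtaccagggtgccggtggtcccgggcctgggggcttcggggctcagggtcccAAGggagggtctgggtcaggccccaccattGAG
HSPA5: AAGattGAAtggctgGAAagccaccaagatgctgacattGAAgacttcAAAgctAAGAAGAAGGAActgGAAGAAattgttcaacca
HSPA8: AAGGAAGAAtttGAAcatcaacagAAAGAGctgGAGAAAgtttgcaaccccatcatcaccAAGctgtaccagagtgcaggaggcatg
DNAJC8: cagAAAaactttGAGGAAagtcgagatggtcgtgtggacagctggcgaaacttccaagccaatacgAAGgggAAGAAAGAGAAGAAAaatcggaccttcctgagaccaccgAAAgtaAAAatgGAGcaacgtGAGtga

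These stretches lie on the minus strand for HSP90AA1 (chr14:102085298-102085327 and chr14:102084789-102084998, coding parts of exons 4 and 5), HSPA5 (chr9:125236670-125236756, exon 8) and HSPA8 (chr11:123057824-123057910, exon 9). DNAJC8 (chr1:28203747-28203761 and chr1:28201248-28201370, exons 8 and 9) is on the minus strand as well. The plus strand holds those of HSP90AB1 (chr6:44250131-44250154 and chr6:44250291-44250503, exons 5 and 6), HSP90B1 (chr12:103938346-103938459 and chr12:103939509-103939574, exons 7 and 8) and HSPA1A (chr6:31817434-31817670, exon 1). The DNAJC8 stretch ends with the stop codon.

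The chaperone genes carried 446 peaks, 64 and 67 in the METTL16 lists, 89 and 45 in the eIF3a lists and 90 and 91 in the eIF3b lists. METTL16 replicates 1 and 2 had peaks on 40 and 38 of the 63 genes, which is 63.5% and 60.3%, beside 53.8% and 58.5% of all 10830 genes. The eIF3a replicates had peaks on 44 and 26 chaperone genes (69.8% and 41.3%, beside 75.4% and 48.3% of all genes). The eIF3b replicates had peaks on 50 and 47 (79.4% and 74.6%, beside 74.5% and 69.9%). The chaperone share thus lay above the share of all genes in the METTL16 and eIF3b lists and below it in both eIF3a lists. The gap was smallest in METTL16 replicate 2 (60.3%, beside 58.5%), and these differences were not tested.

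A gene was called bound when both replicates of a protein had a peak on it. METTL16 bound 30 chaperone genes (47.6%, beside 42.6% of all genes), eIF3a bound 23 (36.5%, beside 42.4%) and eIF3b bound 42 (66.7%, beside 60%). All 3 proteins bound 14 (22.2%, beside 25.2%), which is the same as a peak in all 6 lists (25.2% of all genes). The count for eIF3a was set by replicate 2, without which it would be 44 (69.8%, beside 75.4%). The 14 genes were HSP90AA1, the HSP70 genes HSPA1A, HSPA4, HSPA5 and HSPA9, and the DNAJ genes DNAJA2, DNAJC2, DNAJC5, DNAJC8, DNAJC9, DNAJC11, DNAJC21, DNAJC22 and DNAJC24. In 8 of them (12.7% of the members, beside 15.9% of all genes), at least 1 base lay under a peak in all 6 lists. These were DNAJC5, DNAJC8, DNAJC11, DNAJC22, DNAJC24, HSP90AA1, HSPA1A and HSPA9. Within a protein, the peaks of the 2 replicates shared bases in 26 of 30 bound chaperone genes for METTL16, 19 of 23 for eIF3a and 36 of 42 for eIF3b, which is 86.7%, 82.6% and 85.7%, beside 84.8%, 81% and 88.1% of all bound genes.

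**Figure D1:**
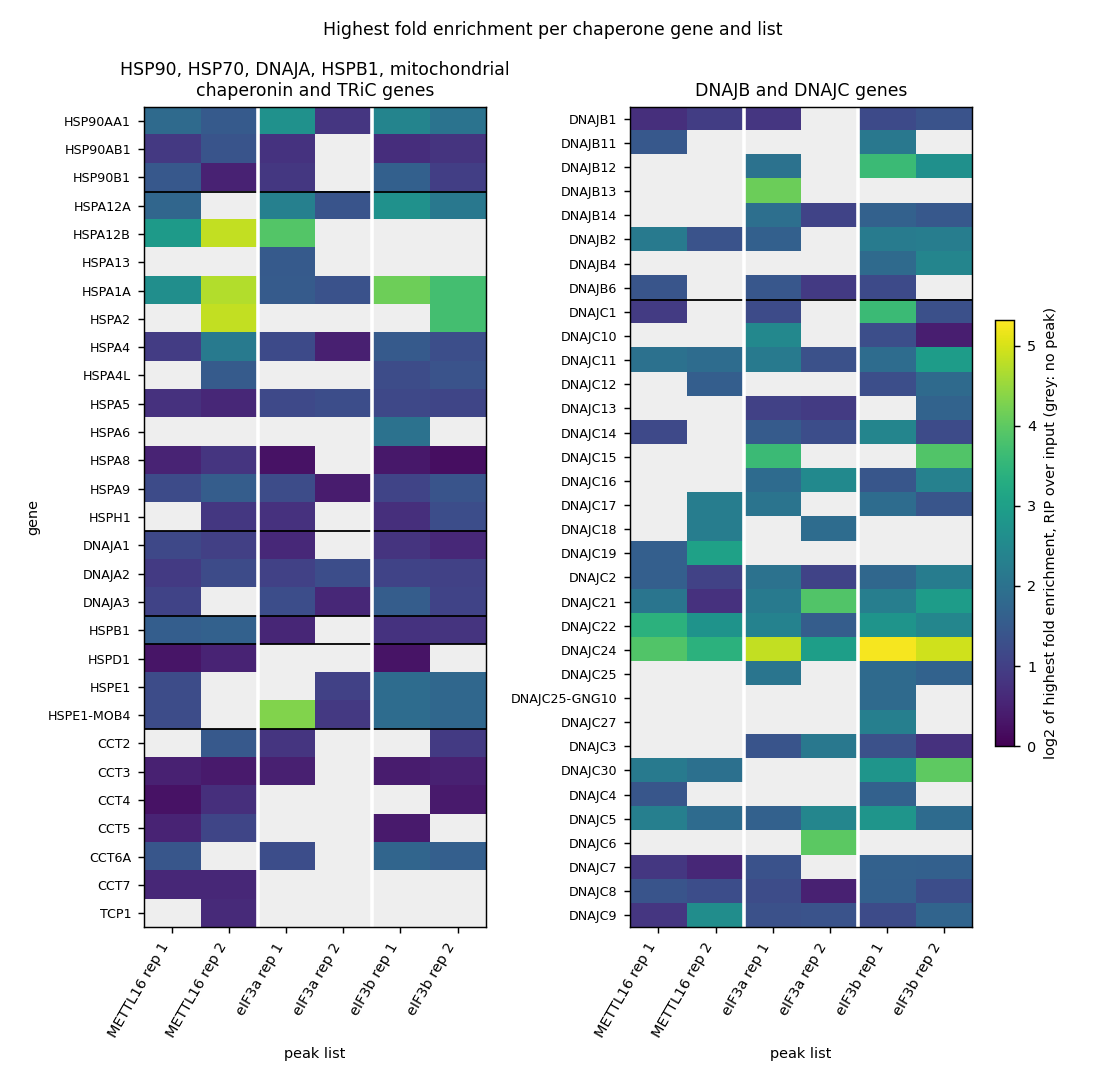
Highest fold enrichment of RIP over input (log2, colour) for each of the 63 chaperone genes (vertical axis) in each of the 6 lists (horizontal axis), with black lines between classes and grey where the gene had no peak. The TRiC genes are dark where they have peaks (1.2 to 3.35), DNAJC24 is brighter in all 6 lists (7.96 to 38.1), and the eIF3a replicate 2 column has the most grey, with peaks on 26 genes.

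Enrichment of chaperone peaks was low. The median fold enrichment per list was 2.33 and 2.13 for METTL16, 2.48 and 2.38 for eIF3a and 2.8 and 2.73 for eIF3b, below the median of all peaks of the same list in each (3.09, 3.4, 2.98, 2.73, 3.2 and 2.94). By class, the median was 1.48 for TRiC, 1.75 for HSP90, 1.86 for DNAJA, 2.42 for HSP70, 2.76 for DNAJB and 3.06 for DNAJC peaks. Peak width differed little. The median over chaperone peaks was 194 exonic bases ± 18.4 (SD, n = 2 lists) for METTL16, 180 ± 0.707 for eIF3a and 188 ± 9.9 for eIF3b, beside 180 ± 0, 195 ± 21.2 and 196 ± 20.5 for all peaks. Single peaks ran from 60 to 2423 bases.

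Of the 446 peaks, 424 lay on the canonical transcript of their gene, and 22 had less than 50% of their bases on it. The peak centre was in coding sequence for 64.8% ± 2.66 (SD, n = 2 lists) of chaperone peaks of METTL16, 47.7% ± 4.95 of those of eIF3a and 63.3% ± 2.6 of those of eIF3b. The same shares over all peaks were 65.6% ± 5.52, 58.1% ± 0.742 and 60.2% ± 2.69. The METTL16 and eIF3a chaperone values did not overlap (62.9% and 66.7% against 51.2% and 44.2%). Those of all peaks did not overlap either (61.7% and 69.5% against 57.5% and 58.6%). The 3′ UTR held 50% ± 4.99 of the eIF3a chaperone peaks, beside 38.3% ± 0.275 of all eIF3a peaks. For METTL16 it held 28.2% ± 1.24 of chaperone peaks, beside 28% ± 5.54 of all peaks. A single gene, DNAJC5, gave 6 and 9 of the 18 chaperone peaks in the 3′ UTR of METTL16 replicates 1 and 2. It also gave 3′ UTR peaks in both eIF3a lists. The shares therefore depend on this gene, and they were not computed without it. An exact two-sided permutation test of 2 lists against 2 cannot give a p below 0.333, here or in any other comparison of 2 proteins.

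Within coding sequence, chaperone peaks lay late. Of 252 coding peaks pooled over the lists, 36.1% had their centre in the last 20% of the coding sequence, beside 22.7% of 60629 coding peaks of all genes. The share ranged from 30.4% to 43.6% over the 6 lists for chaperones and from 18.9% to 24.6% for all genes, so the ranges did not overlap. HSP70 peaks had 46% there and HSP90 peaks 36.6%, and the members outside both classes 31.8%. The DNAJC genes, with 91 of the coding peaks, had 27.5%. Their share lay below that of all genes in METTL16 replicate 2 (20%, beside 21.6%) and eIF3a replicate 1 (17.6%, beside 23.2%). In the other lists it lay above. Peaks of different lists at the same site are counted each time, so the pooled shares rest on fewer sites than peaks.

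**Figure D2:**
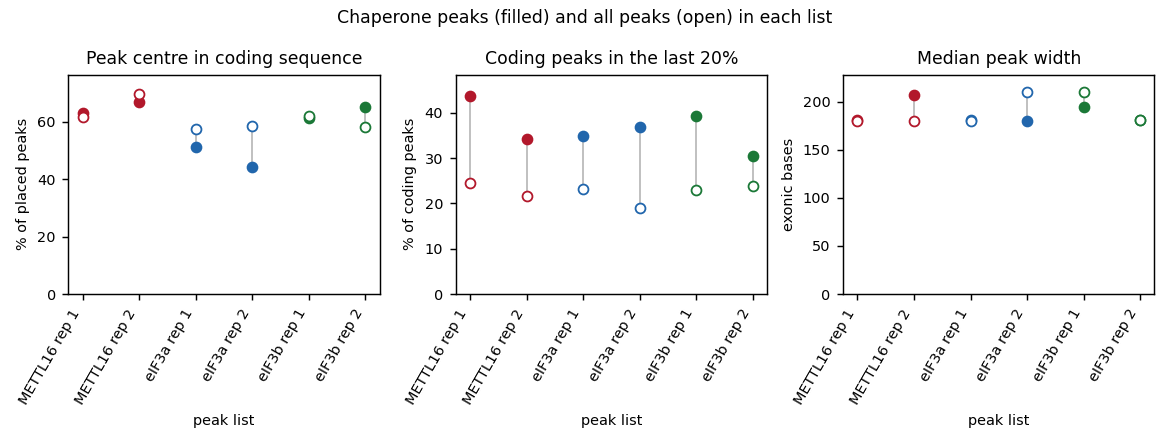
Share of peaks with their centre in coding sequence (left, % of placed peaks), share of coding peaks in the last 20% of the coding sequence (middle, %) and median peak width (right, exonic bases) in each list, for chaperone genes (filled) and all genes (open). The filled points lie above the open ones in all 6 lists in the middle panel (30.4% to 43.6% against 18.9% to 24.6%), whereas coding share and width show no such order.

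All 3 HSP90 genes had peaks, and the 41 peaks on their canonical transcripts all had their centre in coding sequence. HSP90AA1, the stress-inducible cytosolic HSP90, had a highest fold enrichment of 3.59 and 2.86 in the METTL16 lists, 6.45 and 1.78 in the eIF3a lists and 5.31 and 4.1 in the eIF3b lists. By p-value, its rank among a list's genes was 32 and 131, 18 and 435, and 17 and 12, so it was the first chaperone gene in every list except METTL16 replicate 2, where HSP90AB1 came first at rank 78. The value of 6.45 belongs to a peak on an upstream exon outside the canonical transcript, which eIF3b replicate 1 also had, with 5.15-fold enrichment. HSP90AB1, the constitutive cytosolic form, reached 1.85 and 2.62 in the METTL16 lists, 1.71 and no peak in the eIF3a lists, and 1.62 and 1.75 in the eIF3b lists. HSP90B1, the endoplasmic reticulum form, reached 2.76 and 1.43, 1.83 and no peak, and 3.08 and 1.99. Both lacked a peak only in eIF3a replicate 2.

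In HSP90AA1, a peak covered codons 212 to 291 of 732 in all 6 lists, the printed stretch, in which 52.5% of codons were for glutamate or lysine, beside 20.7% of its other codons. In HSP90AB1, each base of codons 209 to 287 of 724 (48.1%, beside 20.6%) lay under peaks of at least 4 lists. Only 2 lists covered this whole stretch. METTL16 replicate 2 had no peak between nucleotides 654 and 743, within it, and its HSP90AB1 peaks held 23.3% of these codons, beside 23.8% outside. In HSP90B1, peaks of 4 lists covered codons 288 to 347 of 803 (46.7%, beside 21%), where METTL16 replicate 2 and eIF3a replicate 2 had no peak. The window of 31 codons with the highest share in each gene reached 71%, 64.5% and 67.7% and lay under peaks in 6, 4 and 4 lists. As background, this is the charged linker region. Of the HSP90 coding peaks, 39% lay in the second of 5 equal parts of the coding sequence, 36.6% in the last and none in the middle part. In HSP90AA1, peaks of 5 lists also began at nucleotide 1560, under a lower rise of the same codons. HSP90B1 had a further peak over its start codon in 4 lists.

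**Figure D3:**
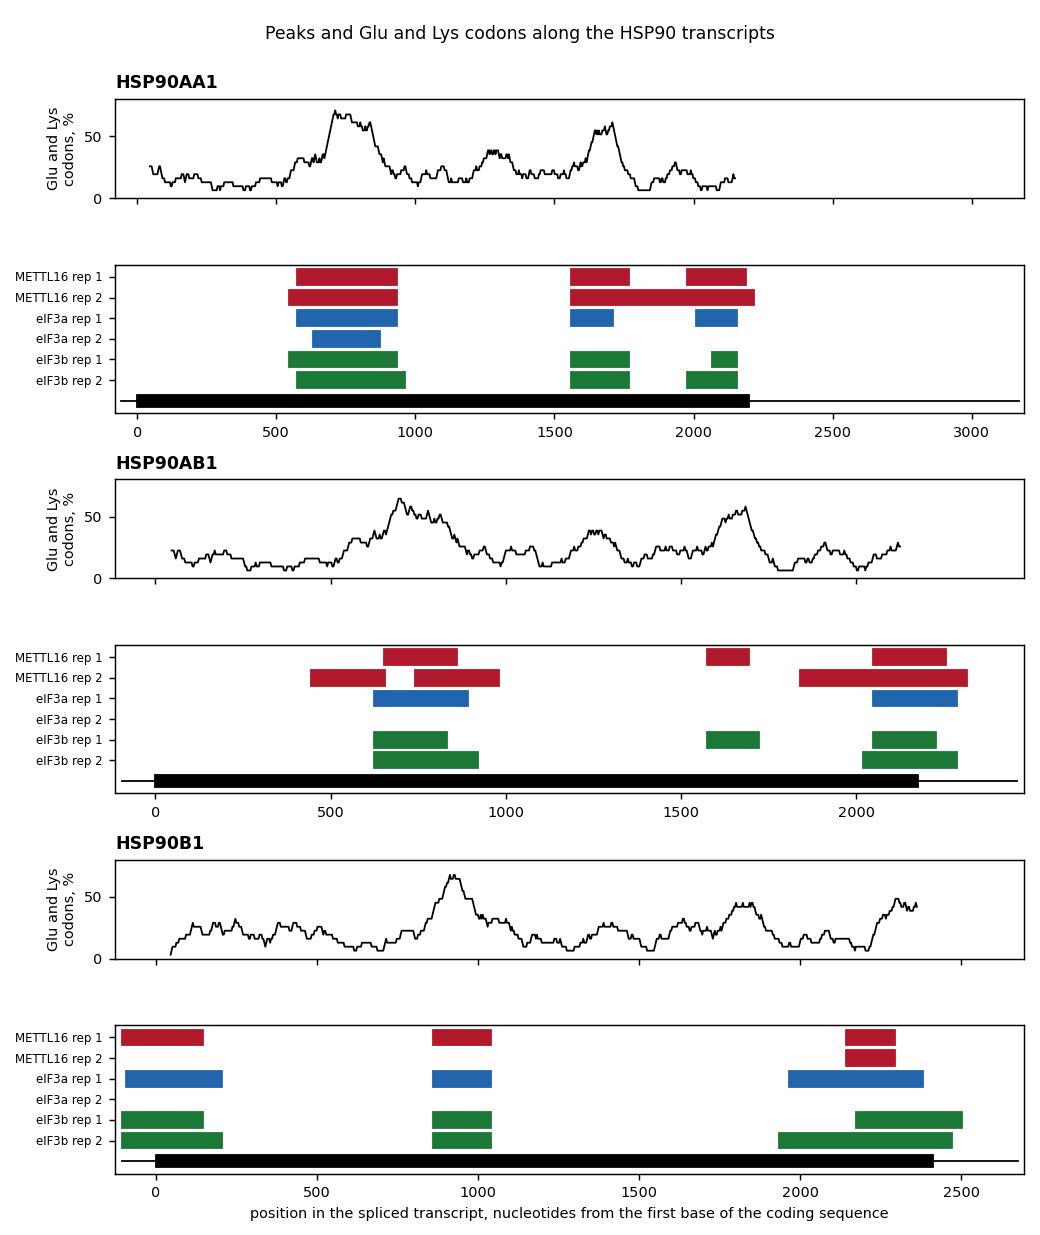
Peaks of the 6 lists along the 3 HSP90 transcripts (red METTL16, blue eIF3a, green eIF3b; black bar, coding sequence; thin line, untranslated regions) in nucleotides from the start of the coding sequence, under the share of glutamate and lysine codons in a sliding window of 31 codons (%). The highest rise of each profile, at 71%, 64.5% and 67.7%, lies under peaks in 6, 4 and 4 lists, and eIF3a replicate 2 has a peak on HSP90AA1 alone.

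Over all chaperone genes, the excess of glutamate and lysine codons inside peaks was less even. The median difference between codons inside and outside the peaks of a gene was 4.55 and -0.531 percentage points in the METTL16 lists, 6.97 and 3.38 in the eIF3a lists and 5.41 and 6.08 in the eIF3b lists. Over all genes it was 2.95, 1.18, 2.75, 1.6, 2.83 and 3.49 in the same order. METTL16 replicate 2 was the list in which the chaperone median lay below that of all genes.

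Of 15 annotated HSP70 genes, 12 had a peak. METTL16 bound 6 of these 12, eIF3a 5 and eIF3b 8, beside 42.6%, 42.4% and 60% of all genes. HSPA8, the constitutive cytosolic HSP70, had low enrichment in 5 lists, at 1.44 and 1.77 for METTL16, 1.19 for eIF3a replicate 1 and 1.27 and 1.15 for eIF3b. Many chaperone genes, this one included, have processed pseudogenes, and how reads shared with those were placed is not stated. HSPA5 (BiP), the endoplasmic reticulum HSP70, had 1.7 and 1.51, 2.26 and 2.39, and 2.24 and 2.17. HSPA9 (mortalin), the mitochondrial HSP70, had 2.32 and 2.97, 2.36 and 1.33, and 2.13 and 2.6. Their peaks met near the end of the coding sequence. Peaks of 5 lists covered codons 589 to 617 of 646 in HSPA8 and codons 601 to 629 of 654 in HSPA5, and in HSPA9 peaks of all 6 lists shared bases there. Glutamate and lysine codons made up 31% and 37.9% of the HSPA8 and HSPA5 stretches, beside 15.2% and 18.2% elsewhere in the gene. The peaks of HSPA5 in eIF3a replicate 2 and those with its highest fold in eIF3a replicate 1 and eIF3b replicate 1 lay elsewhere, in the 3′ UTR.

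HSPA1A, the heat-inducible cytosolic HSP70, was the member of this class with the highest enrichment among those in all 6 lists. Its highest fold was 6.18 and 26.2 in the METTL16 lists, 2.87 and 2.55 in the eIF3a lists and 17.8 and 13.2 in the eIF3b lists. Both eIF3a values lay below all 4 others. It had 2 shared sites, a peak over the start codon in all 6 lists and the printed stretch of codons 560 to 638 of 641, also in all 6. In METTL16 replicate 2 and both eIF3b lists, a further peak lay in the middle of the coding sequence and carried the highest fold. In METTL16 replicate 2 this peak was a weak call, with a log10 of the deposited peak p-value of -5.18. The peak over the printed stretch in that list had 23.8-fold enrichment and -209. Its copy HSPA1B had no peak in any list. The coding sequences of HSPA1A and HSPA1B differed at 4 positions (nucleotides 1710, 1860, 1905 and 1920) and were 99.8% identical. Of the 50-base windows of HSPA1A, 93.8% in coding sequence and 0% in either untranslated region also occurred in HSPA1B. How reads shared by both copies were mapped is not stated, so the coding peaks of HSPA1A are uncertain. Both shared sites hold sequence that differs between the copies, the start codon site in its 5′ UTR part and the printed stretch at nucleotides 1710, 1860 and 1905. Windows inside the peaks were shared with HSPA1B for 36.8% (eIF3a replicate 2) to 78.6% (METTL16 replicate 2), and outside them for 65.2% to 86.6%.

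**Figure D4:**
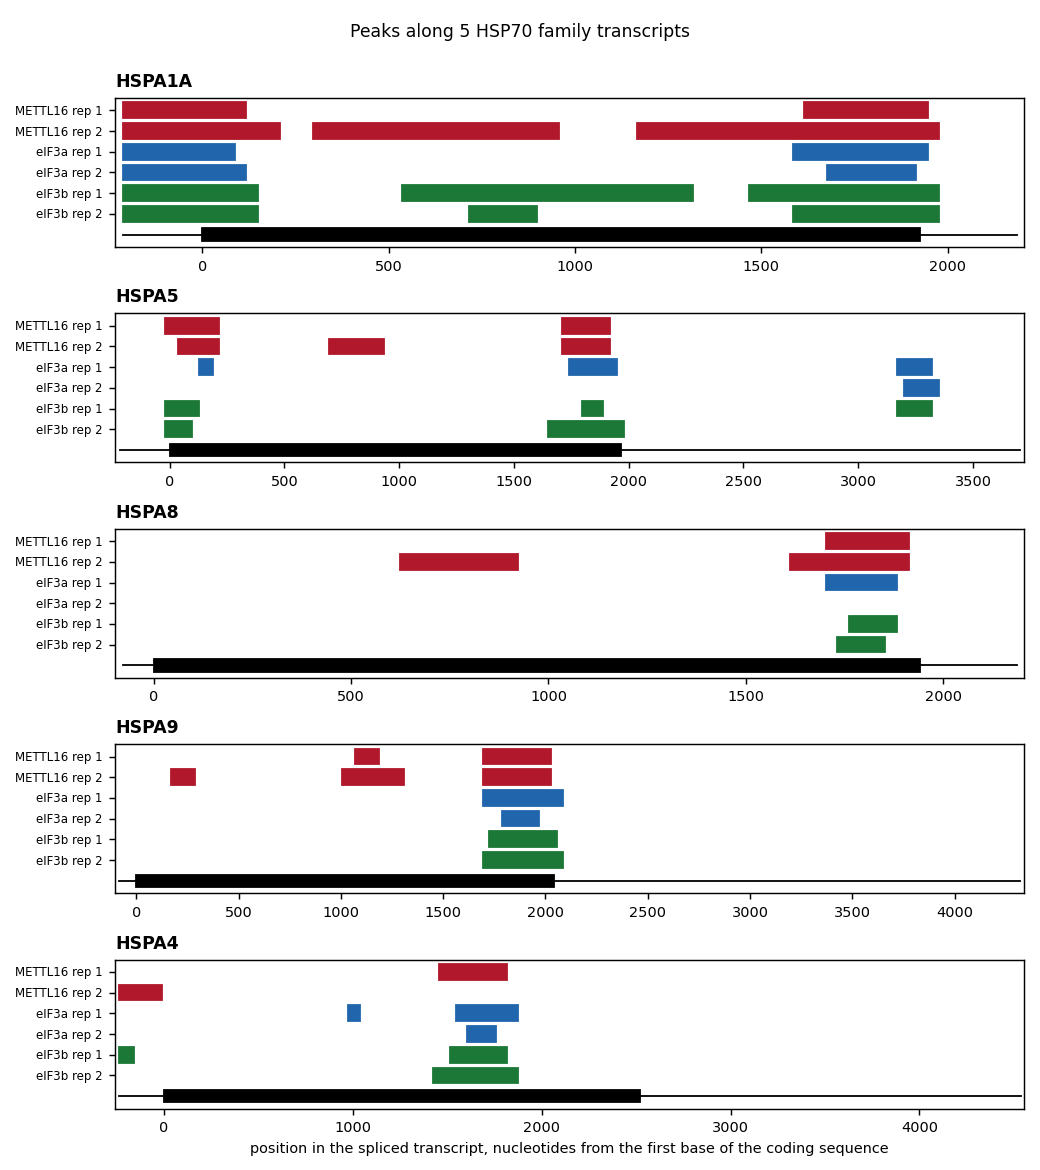
Peaks of the 6 lists along HSPA1A, HSPA5, HSPA8, HSPA9 and HSPA4 (red METTL16, blue eIF3a, green eIF3b; black bar, coding sequence; thin line, untranslated regions), in nucleotides from the start of the coding sequence. Peaks stack near the end of the coding sequence in HSPA1A and HSPA9 in all 6 lists and in HSPA8 and HSPA5 in 5, whereas those of HSPA4 lie further from its end.

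The other HSP70 genes were less even. HSPA4, an HSP110 relative that acts as a nucleotide exchange factor, had 1.94 and 4.48 for METTL16, 2.28 and 1.39 for eIF3a and 2.86 and 2.44 for eIF3b. Its METTL16 replicates did not share a base, with a coding peak in replicate 1 and a 5′ UTR peak in replicate 2. HSPH1 (HSP110) had coding peaks in METTL16 replicate 2 (1.81), eIF3a replicate 1 (1.68) and both eIF3b lists (1.65 and 2.38). HSPA4L had 2.87 in METTL16 replicate 2 and 2.35 and 2.57 in the eIF3b lists, with none for eIF3a. HSPA12A had peaks in 5 lists, from 2.61 to 6.46, and HSPA12B had 7.51 and 28.6 for METTL16, 14.9 in eIF3a replicate 1 and none for eIF3b. HSPA2 had 28.6 in METTL16 replicate 2 and 13.2 in eIF3b replicate 2. These high ratios came with weak calls. The log10 of the deposited peak p-value reached -5.42 and -2.73 for HSPA2, and -3.86, -5.42 and -6.59 for HSPA12B. For HSP90AA1 it reached -376 in METTL16 replicate 1. HSPA6 (4.01, eIF3b replicate 1) and HSPA13 (2.85, eIF3a replicate 1) each had peaks in 1 list. HSPA2 and HSPA6 resemble HSPA1A in sequence, and reads they share were not separated here. HSPA14, HSPA1B and HSPA1L had no peak.

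DNAJ genes were the largest group, with 3 DNAJA, 8 DNAJB and 26 DNAJC members. Of the 26 DNAJC genes, METTL16 bound 11, eIF3a 12 and eIF3b 18, beside 42.6%, 42.4% and 60% of all genes, and 8 had peaks in all 6 lists, beside 25.2%. Their 201 peaks lay in the 3′ UTR for 51.7% and in coding sequence for 45.3%, whereas HSP70 peaks lay in coding sequence for 73.3%. These are shares of peaks and not of genes. DNAJC5 alone gave 5 to 9 peaks per list, and all of its METTL16 peaks lay in the 3′ UTR. The shares without DNAJC5 were not computed. The median 3′ UTR was 1665 bases long in DNAJC members and 1876 bases in HSP70 members. The median coding sequence was 1052 and 1996 bases long. Whether these lengths go with the shares was not tested.

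DNAJC24, which takes part in making diphthamide on elongation factor 2, had the highest enrichment of the 14 genes present in all lists. It reached 14.6 and 10.7 for METTL16, 28.5 and 7.96 for eIF3a and 38.1 and 30.8 for eIF3b, each time in the 3′ UTR. Its calls were weaker by p-value than those of HSP90AA1. The smallest log10 of the deposited peak p-value ran from -3.52 (eIF3a replicate 2) to -35.8 (eIF3b replicate 1). For HSP90AA1 it ran from -90.2 to -1060. DNAJC22, next by median fold after HSPA1A, had 10.7 and 6.69, 5.13 and 2.95, and 6.73 and 5.41, also in the 3′ UTR. DNAJC5, the cysteine string protein of secretory vesicles, had 38 peaks, and 1415 of its bases lay under peaks in all 6 lists. Its 3′ UTR held the widest peak of any member, of 2423 bases in eIF3a replicate 2, and its folds were 4.9 and 3.63, 3.13 and 5.43, and 6.85 and 3.64. DNAJC8, a splicing-associated J protein, had a single peak per list and each of the 6 spanned the stop codon. Its values were 2.61 and 2.39, 2.36 and 1.4, and 3.11 and 2.38. In its printed stretch, glutamate and lysine codons made up 28.3%, against 28.5% elsewhere. Over whole peaks, in the 5 lists other than eIF3a replicate 2, they made up 35.7% to 38.1%, beside 17.2% to 23.9% outside them, and in eIF3a replicate 2 28.9%, beside 28.4%.

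Of the other DNAJ genes with peaks in all lists, DNAJC21, a ribosome biogenesis factor, ran from 1.69 (METTL16 replicate 2) to 14.7 (eIF3a replicate 2), DNAJC11 from 2.48 to 7.71, DNAJC2, a J protein at the ribosome, from 2.08 to 4.7 and DNAJC9, a histone co-chaperone, from 1.8 to 6.13. DNAJA2, a general HSP70 partner, ran from 1.88 to 2.39. DNAJB1, the heat-inducible HSP40, had 1.64 and 1.96 for METTL16, 1.78 in eIF3a replicate 1 and 2.29 and 2.57 for eIF3b. Its METTL16 replicates shared no base.

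HSPB1 (HSP27) was the only small heat shock gene of 8 with a peak. It had 3.03 and 3.16 for METTL16, 1.49 and no peak for eIF3a and 1.71 and 1.75 for eIF3b. The METTL16 values lay above the others, and all 5 peaks covered codons in the middle of the gene. HSPD1 (HSP60) had 1.24 and 1.45 for METTL16 and 1.21 in eIF3b replicate 1. HSPE1 (HSP10) had 2.35 in METTL16 replicate 1, 2.04 in eIF3a replicate 2 and 3.66 and 3.45 for eIF3b, all on exons outside its canonical transcript. HSPE1-MOB4 is a readthrough gene of that locus and DNAJC25-GNG10 one of DNAJC25, and 5 peaks of these 2 genes share bases with a peak of HSPE1 or DNAJC25 in the same list, so they are not separate sites.

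The symbol rule took 10 annotated genes as TRiC, CCT6B and CCT8L2 among them, so this class can be wider than the ring itself. Peaks lay on 7 of the 10, with the lowest median enrichment of the classes (1.48, range 1.16 to 3.35 over 24 peaks). Of these 7, METTL16 bound 4 (CCT3, CCT4, CCT5 and CCT7), beside 42.6% of all genes, and eIF3b bound 2 (CCT3 and CCT6A), beside 60%. eIF3a bound none, beside 42.4%, since eIF3a replicate 2 had no TRiC peak, whereas replicate 1 had peaks on 3 TRiC genes. CCT3 had 1.4 and 1.3 for METTL16, 1.39 in eIF3a replicate 1 and 1.32 and 1.41 for eIF3b, from peaks that reached or began at the last base of the coding sequence. CCT4 had 1.2 and 1.65 for METTL16 and 1.3 in eIF3b replicate 2, each over the start codon. CCT5 had 1.45 and 2.17 for METTL16 and 1.31 in eIF3b replicate 1, and CCT7 had 1.5 and 1.51 for METTL16 alone. CCT6A had 2.68 in METTL16 replicate 1, 2.4 in eIF3a replicate 1 and 3.35 and 3.04 for eIF3b, in the 3′ UTR. CCT2 had 2.82 in METTL16 replicate 2, 1.77 in eIF3a replicate 1 and 1.86 in eIF3b replicate 2. TCP1 had 1.55 in METTL16 replicate 2 only, and CCT6B, CCT8 and CCT8L2 had no peak.

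To compare the proteins gene by gene, the exonic bases under peaks were counted, with 0 for no peak, and a gene was counted where both lists of a protein lay above both of another. More bases lay under METTL16 than eIF3a peaks in 14 chaperone genes (22.2%, beside 12.8% of all genes; 14 without eIF3a replicate 2, 24 without eIF3a replicate 1 and 22 without METTL16 replicate 1) and fewer in 9 (14.3%, beside 21.8%). Leaving out a list loosens the rule, so such a count can only stay or rise. No share of all genes was computed for the counts with a list left out, here and against eIF3b below. The 14 included 3 TRiC genes (CCT4, CCT5 and CCT7), 2 HSP90 genes (HSP90AA1 and HSP90AB1), 4 HSP70 genes (HSPA1A, HSPA5, HSPA8 and HSPA9), 3 DNAJ genes (DNAJB2, DNAJC19 and DNAJC30), HSPB1 and HSPD1. Of the 9, 7 were DNAJC genes, the others were DNAJB14 and HSPA12A, and none was an HSP90, TRiC or small heat shock gene. HSPA9 had 452 and 753 bases under METTL16 peaks against 391 and 181 under eIF3a peaks. DNAJC16 had none under METTL16 peaks against 480 and 3349 under eIF3a peaks, where a single 3′ UTR peak of replicate 2 held 1972 bases.

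**Figure D5:**
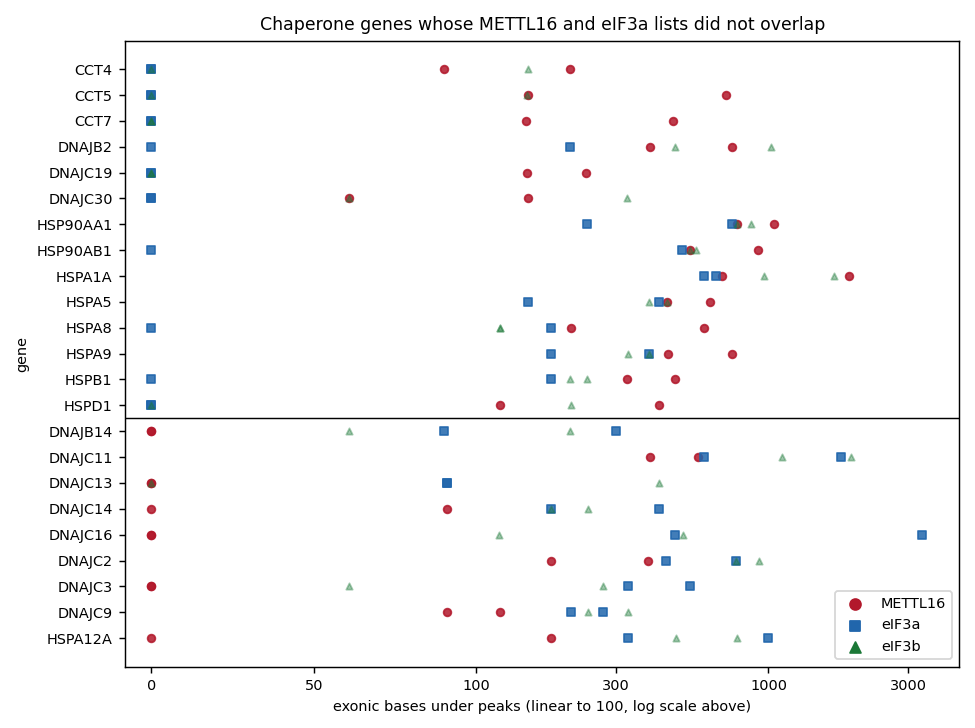
Exonic bases under peaks (horizontal axis, linear to 100 and log scale above) in each list for the 14 chaperone genes with more bases under both METTL16 lists than under both eIF3a lists (above the line) and the 9 with the opposite order (below it). Red circles are METTL16 lists, blue squares eIF3a and pale green triangles eIF3b. The upper block holds HSP90, HSP70, TRiC and 3 DNAJ genes, HSPB1 and HSPD1, and the lower block holds 7 DNAJC genes, DNAJB14 and HSPA12A.

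Against eIF3b, METTL16 had more bases in 8 chaperone genes (12.7%, beside 4.86%), which were CCT5, CCT7, DNAJA1, DNAJC19, HSPA8, HSPA9, HSPA12B and HSPB1. Without METTL16 replicate 1 the count was 19. It had fewer in 27 (42.9%, beside 36%), 15 of them DNAJC genes. HSPA8 had 211 and 602 bases under METTL16 peaks and 121 in each eIF3b list. Between the eIF3 subunits, eIF3a had more bases in 1 gene (1.59%, beside 6.13%), DNAJC3, and this count was 15 without eIF3a replicate 2, 6 without eIF3a replicate 1, 4 without eIF3b replicate 2 and 2 without eIF3b replicate 1. eIF3b had more in 15 (23.8%, beside 21.6%), among them HSP90AA1, HSP90AB1 and HSPA1A. All of these comparisons reuse the same 6 lists.

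A few genes were bound by 1 protein and had no peak in either list of another. METTL16 and not eIF3a held for 6 (9.52%, beside 4.17%), namely CCT4, CCT5, CCT7, DNAJC19, DNAJC30 and HSPD1. Of eIF3a and not METTL16 there were 4 (6.35%, beside 7.37%), DNAJB14, DNAJC3, DNAJC13 and DNAJC16. METTL16 and not eIF3b held for CCT7, DNAJC19 and HSPA12B (4.76%, beside 1.33%). The reverse held for 7 (11.1%, beside 9.82%), DNAJB4, DNAJB12, DNAJB14, DNAJC3, DNAJC10, DNAJC16 and DNAJC25. No member was bound by eIF3a without any eIF3b peak (0%, beside 1.53%), and 4 were bound by eIF3b without any eIF3a peak (6.35%, beside 4.13%), DNAJB4, DNAJC12, DNAJC30 and HSPA4L. DNAJC19, a subunit of the mitochondrial import motor, and CCT7 had peaks in the METTL16 lists alone. The DNAJC19 peaks covered the start codon in both replicates, with 3.06-fold and 8.23-fold enrichment. CCT7 stayed at 1.5-fold and 1.51-fold.

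METTL16 is known to methylate U6 RNA within ACAGAGA, and these letters were searched on the transcript strand of each placed peak. It occurred in peaks of 13 of the 60 chaperone genes with a placed peak. By list, it was in 8.06% and 4.55% of METTL16, 11.9% and 9.3% of eIF3a and 8.43% and 11.6% of eIF3b chaperone peaks, beside 3.3%, 3.27%, 3.9%, 5.36%, 4.1% and 4.51% of all peaks in the same order. The METTL16 lists did not lie above the others. HSPA1A and DNAJC5 held it in all 6 lists, and a match is a description of sequence, not of a site.

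Co-chaperones and regulators outside the symbol rule were taken as a list of 42 genes. Of these, 38 had a peak in at least 1 list (53.6% of all annotated protein coding symbols did). METTL16 bound 23 of the 38, eIF3a 10 and eIF3b 27, beside 42.6%, 42.4% and 60% of all genes with a peak in any list. STIP1 (HOP), which joins HSP70 to HSP90, PTGES3 (p23) and CDC37, both HSP90 co-chaperones, and FKBP5, HYOU1, CALR and CANX had peaks in all 6 lists. CDC37 had 25.2 and 5.48 for METTL16, 3.05 and 1.28 for eIF3a and 3.7 and 3.02 for eIF3b. HSF1, the main transcription factor of the heat shock response, had 3.8 and 5.98 for METTL16, 2.2 and no peak for eIF3a and 2.72 and 2.16 for eIF3b. TRAP1, the mitochondrial HSP90, which the symbol rule does not take, had 1.73 and 2.76, 1.37 and no peak, and 1.9 and 1.52. BAG6, SUGT1, VBP1 and CRYAB had no peak.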

How the data were processed

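Per the methods, the authors aligned reads with STAR (GRCh38) and then used exomePeak with default settings to find peaks in each RIP sample. Versions, gene annotation and the pairing of RIP with input samples are not given in the sources used here. Each deposited list gives, per peak, exonic blocks (the block count), a gene name, a p-value, the log10 of the p-value and adjusted p-value (used as a score) and a fold enrichment, which is a ratio. No read counts were used, so depth and its precision are unknown. The 6 inputs were not analysed as libraries.

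Samples were grouped by GEO titles. Peaks were placed with Python 3.11.15 on the canonical transcripts of GENCODE release 44 (at least 50% of bases on exons, region by peak centre), and plotted with matplotlib 3.10.9. All 63 members matched a current symbol (10309 of all gene names; 424 more by an older symbol, 97 unmatched). Width is the sum of exonic blocks. Placement was tested on simulated data. 1 further stretch is not reported here. The members and gene lists were chosen with earlier results of these data known, so no test was run over them. Single genes were compared with an exact two-sided permutation test, 2 lists against 2. Genes named are all HSP and TRiC members, DNAJB1, DNAJ members in all 6 lists or bound by 1 protein and absent from another, and the 10 with the highest median fold among members in all 6 lists. Alternatives kept peaks at 4-fold or above or each list's top 5000 by p-value, joined replicates by either, placed peaks by bases or by the highest peak per gene, paired replicate numbers, or left out a replicate.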

Additional observations from a re-analysis of the deposited data

How the results depend on the processing

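Of 90 alternative values for 16 results, 44 stayed within the limits set and 46 moved. The counts of bound genes fell or rose by construction, since fewer or more peaks enter. The share of all genes under these settings is not given here, so the counts below cannot be set against it. At 4-fold or above, the bound chaperone genes numbered 4 for METTL16, 2 for eIF3a, 9 for eIF3b and 1 for all 3. With 5000 peaks per list these were 17, 8, 20 and 5. A peak in either replicate gave 48 for METTL16, 47 for eIF3a and 34 for all 3. Without 1 replicate, METTL16 bound 38 to 40 genes, eIF3a 26 to 44, eIF3b 47 to 50 and all 3 bound 14 to 23, with 44 and 23 both without eIF3a replicate 2. More bases under METTL16 than eIF3a peaks held for 1 gene at 4-fold and 9 with 5000 peaks, and for 14 to 24 without 1 replicate (24 without eIF3a replicate 1, 22 without METTL16 replicate 1). For METTL16 over eIF3b it was 1 at 4-fold and 9 to 19 without 1 replicate (19 without METTL16 replicate 1). For eIF3a over eIF3b it was 0 at 4-fold and 0 with 5000 peaks, and 2 to 15 without 1 replicate (15 without eIF3a replicate 2, 6 without eIF3a replicate 1, 4 and 2 without eIF3b replicates 2 and 1).

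The samples share only a replicate number. With a replicate block, in which same-numbered lists were paired, these counts were 14, 10 and 2, and 2 pairs cannot give an exact p below 0.5.

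The mean coding share was 41.7%, 32.1% and 35% at 4-fold. It was 71% for METTL16 and 62.2% for eIF3a with 5000 peaks, 68.1% for METTL16 for the highest peak per gene, and 40.9% for eIF3a and 58.4% for eIF3b by bases. It was 62.9% to 66.7%, 44.2% to 51.2% and 61.4% to 65.1% in single replicates. The median width was 262, 226 and 278 bases at 4-fold, 270, 322 and 344 with 5000 peaks, and 196 for eIF3a and 225 for eIF3b for the highest peak per gene. In single replicates it was 181 to 207, 180 to 181 and 181 to 195. The median fold was 2.6, 2.58 and 3.1 for the highest peak per gene, 2.84 for eIF3b with 5000 peaks, and with 1 replicate alone 2.13 to 2.33, 2.38 to 2.48 and 2.73 to 2.8. For these shifts the cause was not tested. Depth is unknown, so a gene without a peak may be bound below detection.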
